A study of Homo sapiens with 32 samples.

Results

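The S3 libraries hold the m6A methylome of posterior foregut cells, a stage on the way from human embryonic stem cells (hESCs) to pancreatic beta-like cells. Members were all libraries that the labels place at S3, which gave 8 of 32 libraries in the series: 4 m6A immunoprecipitated (IP) libraries and 4 input libraries, one pair for each of 4 RNA preparations. Of the preparations, 2 came from H1 and 2 from MEL1, both established hESC lines, and both lines had been taken through the same steps: activin-type induction with GDF8 and the GSK3 inhibitor CHIR-99021, then FGF7, then the protein kinase C activator TPB, the hedgehog inhibitor SANT-1, retinoic acid and the BMP receptor inhibitor LDN-193189. No transgene or mutation is given for these groups. The other 24 libraries come from the same lines at S0 (undifferentiated hESCs), S4 (pancreatic progenitors) and S6 (immature beta-like cells). The study calls the preparations independent biological samples, while the labels name them by line and number and do not say whether they were separate cultures, so p-values measure the spread between these preparations, which may be technical.

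N6-methyladenosine (m6A) is written on messenger RNA during transcription by a complex of METTL3, METTL14 and partners such as WTAP, is removed by FTO and ALKBH5, and is bound by YTH-domain proteins, several of which shorten the life of the transcript. It is known for lying in long internal exons and near stop codons, and for marking many transcripts of developmental regulators. Posterior foregut endoderm is the epithelium that gives rise to pancreas, liver, bile duct and duodenum, and it is defined by forkhead, GATA, HNF and ONECUT transcription factors.

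Reads of every library were counted in 26104 merged peaks. The 4 S3 input libraries held 4139505 to 4888115 reads in peaks and the 4 IP libraries 13748668 to 14382817. Mitochondrially encoded transcripts took 12.9 to 27.5% of input reads and 0.487 to 0.798% of IP reads. In the inputs, all 10 listed markers of posterior foregut had a peak, with summed levels of 1181 and 1115 CPM (a gene's reads scaled to the library total) in H1 and 2983 and 3159 in MEL1, against 16.57 to 25.17 at S0. The lines stood apart beyond their replicates. Among single genes, CDX2 was at 12.89 and 15.54 CPM in H1 and at 425.4 and 419.4 in MEL1, and HNF4A at 50.12 and 48.31 in H1 and at 906.1 and 911.7 in MEL1. The 3 hepatic markers with a peak summed to 450.3 and 455 CPM in H1 and to 30880 and 29100 in MEL1. The 7 markers of undifferentiated cells with a peak (of 9 listed, POU5F1 and NANOG not among them) summed to 1722 and 1789 CPM in H1 and to 348.8 and 383.3 in MEL1, against 3824 to 4283 at S0. SOX2 made up 856.4 and 863.7 CPM of the H1 sums, inside its S0 range of 762.9 to 1268. L1TD1 was at 69.76 and 79.39 in H1, against 790.6 to 1549 at S0. DPPA4 was at 40.92 and 53.63, against 342.6 to 476.2. SALL4, at 173.7 and 175.8, lay close under its S0 range of 177.1 to 233.9. The 3 neuroectoderm markers with a peak summed to 293 and 277.3 CPM in H1 and to 32.37 and 45.25 in MEL1. At S0 they summed to 122.8 to 547.7, a range that holds the H1 values. ZIC2 was at 219.7 and 219.6 CPM in H1 and at 3.865 and 7.033 in MEL1. OTX2 differed less, with 58.1 and 46.18 in H1 and 28.51 and 38.21 in MEL1. SOX1 had 0 reads in both MEL1 inputs. In such bulk RNA, fewer cells of a type and less RNA per cell cannot be told apart. The part of these mixtures in the results was not tested, and the counts of all peaks and of 3 gene lists are also given for each line alone.

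IP over input was tested per peak within preparations by edgeR's quasi-likelihood test. To be called enriched or depleted, a peak had to pass 2-fold with a p of less than 0.1 after Benjamini-Hochberg adjustment, and all log2 values are relative to the typical merged peak, because the normalisation centres the libraries on each other. Of 26101 peaks tested, 8056 were enriched (30.9%) and 9154 were depleted (35.1%). Scaling by library totals turned this order round, with 9032 enriched and 8445 depleted. H1 alone gave 8719 and 9165, and MEL1 alone 6265 and 7430. The median log2 IP over input was -0.03 and the middle 50% of peaks lay between -2.20 and 1.49. Of the enriched peaks, 7699 were above 0 in all 4 preparations, and 8793 of the depleted peaks were below 0 in all 4. In the tenth of peaks with the fewest input reads (0 to 19), 57% were enriched and 0.383% depleted. In the tenth with the most, the shares were 22.3% and 48.7%, so input depth moved with the call. Among the 19096 peaks with at least 50 input reads, 27.1% were enriched and 44.6% depleted.

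Transcripts of foregut transcription factors lay on the high side of this distribution. Of 26 listed genes, 24 had a merged peak, and of their 76 peaks 42 were enriched (55.3%, against 30.9% of all peaks) and 6 depleted (7.89%, against 35.1%). Their median log2 IP over input was 1.52, against -0.03 over all peaks. Among the 62 with at least 50 input reads, 34 were enriched (54.8%) and 6 depleted (9.68%). H1 alone gave 42 enriched and 6 depleted, and MEL1 alone 38 and 7 of 75 tested. Summed by gene, 17 of the 24 were enriched, 1 was depleted and 6 were not called, against a background of 30.7% of 7978 genes enriched and 27.5% depleted. Among those not called as genes were FOXA2 (0.66), HNF4A (0.65), MEIS1 (0.34) and FOXA3 (0.33).

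**Figure D1:**
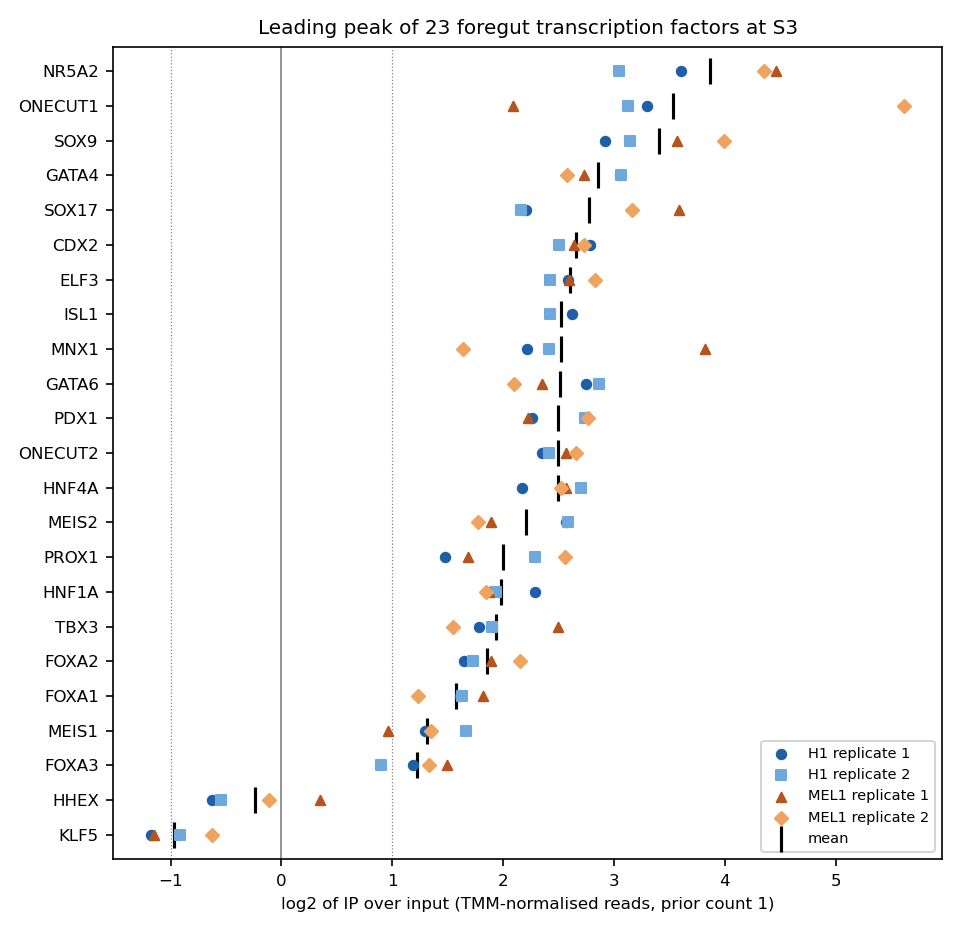
Log2 IP over input (horizontal axis, normalised reads with a prior count of 1) of the peak with the most IP reads in each of 23 foregut transcription factor transcripts; points are the 4 S3 preparations, black bars their means and dotted lines a 2-fold change (MEL1 held no ISL1 reads and has no points there). The points lie above 0 in all 4 preparations for 20 of the 23 genes, and KLF5 lies below 0 in all 4.

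The leading peak of a gene, the one with the most IP reads at S3, was enriched in 22 of the 24 factors and depleted in 0. A leading peak is chosen on IP reads and so tends to be high: over all genes it was enriched in 4313 of 7977. Its median log2 was 2.49 in the foregut factors and 1.25 over all genes. GATA4, the zinc finger factor of endoderm and heart, had 808 and 765 input reads and 23002 and 23655 IP reads in H1 at its leading peak (listed offset 2801). In MEL1 it had 1485 and 1707 input and 37663 and 36756 IP reads. Log2 IP over input was 3.06, 3.06, 2.73 and 2.58 in the 4 preparations (H1 replicates 1 and 2, then MEL1 replicates 1 and 2, as in all such series of values). Both lines were high, with a fitted value of 2.86 ± 0.14 (SE, n = 4 preparations; edgeR adjusted p = 9.75e-07).

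FOXA2, the pioneer factor that opens chromatin in endoderm, had values of 1.65, 1.73, 1.89 and 2.15 at offset 604. FOXA1, its close relative, had 1.61, 1.63, 1.82 and 1.23 at offset 1233. Both lay above 0 in every preparation, lower than GATA4. CDX2, the homeodomain factor of mid- and hindgut, differed between the lines in input, with 63 and 73 input reads in H1 and 1761 and 1789 in MEL1. Its log2 IP over input was 2.78, 2.50, 2.64 and 2.73. HNF4A, the nuclear receptor of gut epithelium and liver, had 84 and 55 input reads in H1 and 1143 and 1372 in MEL1, with log2 values of 2.17, 2.71, 2.56 and 2.52. For both genes the lines overlapped in IP over input while their input levels did not.

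SOX9, the progenitor factor of pancreas and ducts, had 2.92, 3.14, 3.57 and 3.99 at offset 1951, both MEL1 values above both H1 values on 21 and 20 MEL1 input reads. NR5A2, a nuclear receptor of gut and exocrine pancreas, had 3.60, 3.04, 4.46 and 4.35 on 96 input reads in all, and all 4 of its peaks were enriched. ONECUT1 spread most, 3.29, 3.12, 2.09 and 5.62, with 2 and 0 input reads in MEL1. PDX1, the homeodomain factor of the pancreatic domain, had 3 of 4 peaks enriched and a leading value of 2.50 ± 0.20 (SE; edgeR adjusted p = 9.94e-06); it and HHEX lie beyond the 15 genes of the naming rule and were added after the values were seen. HHEX, a homeodomain factor of anterior gut endoderm, was not called (-0.24 ± 0.29, edgeR adjusted p = 0.476). KLF5, a zinc finger factor of gut epithelium that was added in the same way, had a leading peak of -0.97 that was not called, and was the one factor depleted as a gene. Among the remaining leading peaks with many IP reads, ELF3 had a fitted log2 of 2.61, GATA6 2.51, ONECUT2 2.49, MEIS2 2.26, MEIS1 1.33 and FOXA3 1.24.

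The signalling genes of the foregut were mixed. Of 40 listed genes 34 had a peak (HHIP, RARG, CYP26A1, CYP26B1, RDH10 and SMAD6 had none), and of 137 peaks 40 were enriched and 39 depleted, with a median of 0.28. Those shares are near the background of 30.9% enriched and below that of 35.1% depleted. In the hedgehog pathway, 14 of 39 peaks were enriched and 4 depleted (median 0.89). GLI2, named after its values were seen, gave 13 of these peaks and 4 of the enriched ones. Its leading peak had 2 and 2 input reads in MEL1. In the BMP and activin group it was 12 and 4 of 25 peaks (median 1.03), in the FGF group 6 and 15 of 27 (median -1.30), in the retinoic acid group 3 and 6 of 18 (median 0.26), and in the Notch group 5 and 10 of 28 (median -0.61).

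IHH, the hedgehog ligand made by gut endoderm, had 177 and 189 input and 7847 and 7476 IP reads in H1 at offset 574. In MEL1 it had 1682 and 2081 input and 153907 and 142203 IP reads. That single peak held 1.11 and 1.03% of all IP reads in MEL1, against 0.0571 and 0.052% in H1. The preparations gave log2 values of 3.69, 3.41, 4.58 and 4.24, high in both lines and higher in MEL1, with a fitted 4.00 ± 0.21 (SE; edgeR adjusted p = 1.48e-06). SMO, the hedgehog transducer that SANT-1 binds, had a leading value of 1.63, its other 4 peaks were depleted, and as a gene it was not called (0.30).

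Of the BMP ligands, BMP2 reached 3.33 and BMP4 2.27, while BMP7, added after its value was seen, was not called (0.55). The receptor BMPR1A was at 3.12 and the target gene ID2 at 2.73. The FGF receptor FGFR2 had a leading peak of 1.54 with its other 4 peaks depleted. Its relatives FGFR1 (-2.26), FGFR3 (-1.25) and FGFR4 (-2.83), and the BMP targets ID1 (-2.12) and ID3 (-1.59), had depleted leading peaks. These 5 genes were added after their values were seen, and with CRABP2 they are the 6 depleted leading peaks of the list, against 23 enriched. The FGFR1 peak rested on 45 input and 27 IP reads. Its values were -1.75, -2.38, 1.67 and -3.61, with 0 input reads in MEL1 replicate 1. Of the feedback regulators of FGF signalling, DUSP6 had 1 enriched peak (1.6) and 3 depleted of 6, and SPRY2 1 enriched (1.43) and 1 depleted of 2, and neither was called as a gene. For Notch, which restrains endocrine commitment, the leading peaks of the receptor NOTCH2 (2.30), the ligand JAG1 (2.0) and the target HES1 (1.32) were enriched, though HES1 fell under 2-fold in H1 alone (0.88). As genes, JAG1 was enriched (1.33), and NOTCH2 (0.47) and HES1 (0.27) were not called. Of the 5 Notch genes 4 had an enriched leading peak, and that of DLL1, added after its value was seen, was not called (-0.11).

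CRABP2, which carries retinoic acid to the nucleus, had the most input reads of the leading peaks in this list. At offset 451 it had 15326 and 14653 input but 3388 and 3974 IP reads in H1, and 69 and 85 input but 49 and 40 IP reads in MEL1. Its log2 values were -3.95, -3.77, -2.39 and -2.89, low in every preparation and lower in H1, with a fitted -3.38 ± 0.26 (SE; edgeR adjusted p = 8.84e-06). All 3 of its peaks were depleted. Among the retinoid receptors, RXRA was enriched at its leading peak (1.5) and RARA was not called (0.32). RARB, added after its value was seen, was enriched at its leading peak (2.88) on 105 input reads and not called as a gene (0.76).

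Transcripts of the gut epithelium itself lay at the opposite end from the transcription factors. Of 18 listed genes 15 had a peak (CLDN4, KRT8 and CTNNB1 had none), and of 82 peaks 60 were depleted (73.2%, against 35.1% of all peaks) and 6 enriched (7.32%, against 30.9%), with a median of -3.99. By gene, 0 of 15 were enriched and 10 were depleted, against 30.7% and 27.5% of all genes. H1 alone gave 60 depleted and 5 enriched peaks, and MEL1 alone 61 and 5. The same 82 peaks had 57 depleted and 5 enriched at S0, 51 and 3 at S4, and 61 and 6 at S6. Their depletion was therefore not particular to S3. Of the 15 leading peaks, 5 were enriched and 6 depleted, against 4313 and 1356 of 7977 over all genes. KRT19, a keratin of simple and ductal epithelium, had 1761 and 1605 input but 313 and 368 IP reads in H1. In MEL1 it had 6473 and 6522 input but 1505 and 1701 IP reads. Its log2 values of -4.26, -4.01, -4.04 and -3.79 were low in every preparation, with a fitted -4.02 ± 0.14 (SE; edgeR adjusted p = 2.43e-07), and all 6 of its peaks were depleted.

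EPCAM, the epithelial adhesion molecule, had -3.42, -3.15, -3.13 and -3.0 at its one peak. LAMB1, a laminin chain of the basement membrane, had all 10 of its peaks depleted, and the leading peaks of KRT18 (-3.37), LAMA1 (-2.25) and CLDN7 (-1.97) were depleted as well. ITGB1, an integrin chain, had 8 of 9 peaks depleted and a leading peak at -0.01. The enriched leading peaks of this group were those of ITGA6 (1.98), OCLN (1.82), CLDN3 (1.37), CDH1 (1.33) and CLDN6 (1.05). CLDN6, a claudin of early embryonic epithelia, dropped under 2-fold in H1 alone (0.75), and CLDN3 did so in MEL1 alone (0.91).

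The hepatic list, secreted liver proteins whose input levels were far higher in MEL1, had 20 of 32 peaks depleted (62.5%, against 35.1%) and 9 enriched (28.1%, near the 30.9% of all peaks), with a median of -2.26, over 7 genes with a peak of 15 listed. H1 alone gave 19 depleted and 10 enriched, and MEL1 alone 19 and 9. AFP, the fetal serum carrier, had 13 and 9 input and 4 and 0 IP reads in H1 at offset 401, and 20501 and 14130 input but 1058 and 1337 IP reads in MEL1. In log2 terms these are -3.02, -4.32, -6.21 and -5.25, and the H1 values rest on those few reads. As a gene it stood at -6.82, rank 14 from the bottom of 6177. APOB, the large structural apolipoprotein, went the other way, with 7 of 9 peaks enriched and 0 depleted and 2.16 at its leading peak. VTN (-3.51), FGB (-2.29), APOA1 (-2.09) and APOA2 (-1.70) were depleted at their leading peaks, and FGA was at 1.07, falling to 0.91 in H1 alone.

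**Figure D2:**
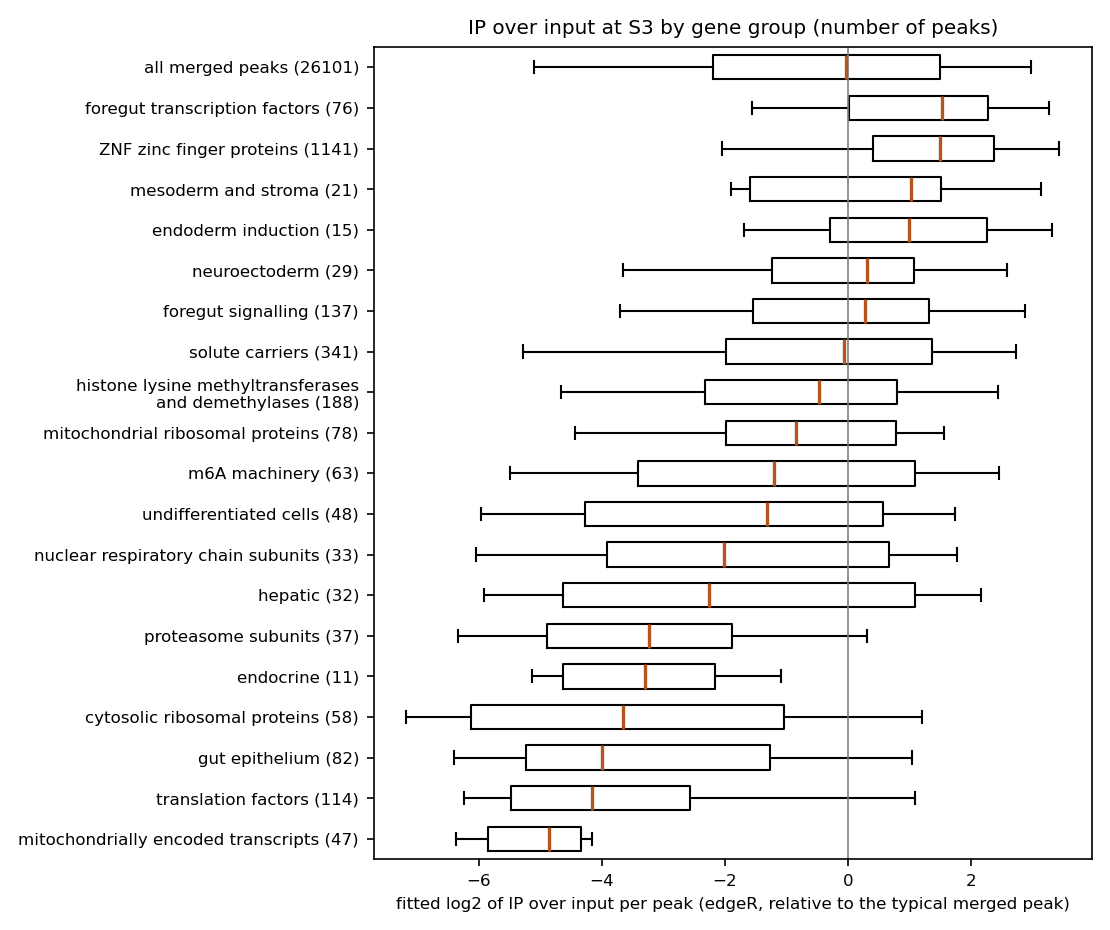
Fitted log2 IP over input per peak at S3 (horizontal axis, relative to the typical merged peak) by gene group, with the number of peaks in parentheses; boxes span the middle 50% of peaks, orange lines are medians and whiskers reach the 5th and 95th percentiles. Foregut transcription factors have a median of 1.52 and ZNF genes of 1.49, gut epithelium has one of -3.99 and mitochondrially encoded transcripts one of -4.86.

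Larger gene families gave a scale for these lists, again beside 30.9% of all peaks enriched and 35.1% depleted. Among 1141 peaks of 291 ZNF genes, which encode zinc finger proteins, 686 were enriched (60.1%) and 95 depleted (8.33%), with a median of 1.49. Of 114 peaks in translation factor genes 94 were depleted (82.5%) and 7 enriched (median -4.16). For proteasome subunits it was 32 of 37 depleted (86.5%, median -3.23), and for cytosolic ribosomal proteins 41 of 58 (70.7%, median -3.66). All 47 peaks of mitochondrially encoded transcripts were depleted (median -4.86). Nuclear respiratory chain subunits had 20 of 33 depleted (60.6%) and 4 enriched (median -2.01). Closer to the background, mitochondrial ribosomal proteins had 34 of 78 depleted (43.6%) and 15 enriched (19.2%, median -0.84), and histone lysine methyltransferases and demethylases 78 of 188 depleted (41.5%) and 35 enriched (18.6%, median -0.47). Solute carriers sat at the centre, with 104 of 341 enriched and 106 depleted and a median of -0.06 that turned positive when libraries were scaled by their totals (0.17) or without mitochondrial peaks (0.06). Many ribosomal protein genes have near-identical processed copies, so how their reads were divided is uncertain.

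Counting all peaks of a gene together, 2452 of 7978 genes were enriched (30.7%) and 2196 depleted (27.5%), so 52.8% of calls were enriched. This split depended on scaling: gene sums have their own centre, and when scaled as the peaks were, 3832 genes were enriched and 1582 depleted (70.8% of calls enriched), and with library totals 4230 and 1425 (74.8%). The 12 genes at each end were taken among the 6177 with at least 100 input reads. NUDCD3, which encodes a dynein-associated co-chaperone, headed them with 3.54, 4.07, 2.93 and 3.39, fitted 3.48 ± 0.20 (SE; edgeR adjusted p = 1.04e-06), on 184 input and 11986 IP reads. The chromatin and transcription regulators CTBP2 (3.23), EMSY (3.20), RSF1 (3.06) and ZNF263 (3.13) followed, with the deubiquitinase cofactor WDR20 (3.20), the p97 adaptor UBXN2A (3.19), the lysosomal enzyme HGSNAT (3.12) and the RNA exosome subunit EXOSC6 (3.05). IHH ranked 11 with 2.69, 2.72, 3.48 and 3.19, fitted 3.03 ± 0.16 (SE), and it was the one member of the foregut lists among the 12. The genes ENSG00000267022 (3.08) and ENSG00000285655 (3.02) have no symbol here.

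At the low end, RPL10A, a large-subunit ribosomal protein, had -6.88, -7.03, -7.13 and -7.79, fitted -7.21 ± 0.20 (SE; edgeR adjusted p = 2.57e-08), on 23877 input and 943 IP reads. RPS12, of the small subunit, was at -6.89. MRPL47 (-7.39) and MRPL3 (-7.08) encode proteins of the mitochondrial ribosome, on 7 and 5 IP reads. MT-RNR1, the small mitochondrial ribosomal RNA, was at -6.92, the peroxidase gene PRDX1 at -6.96 and ODC1, the first enzyme of polyamine synthesis, at -6.93 on 8 IP reads. The other 4 carry pseudogene names and may share reads with their parent genes: RPLP0P9 (-8.50), RN7SL4P (-7.11), RPS2P5 (-7.00) and RPL23AP42 (-6.87).

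**Figure D3:**
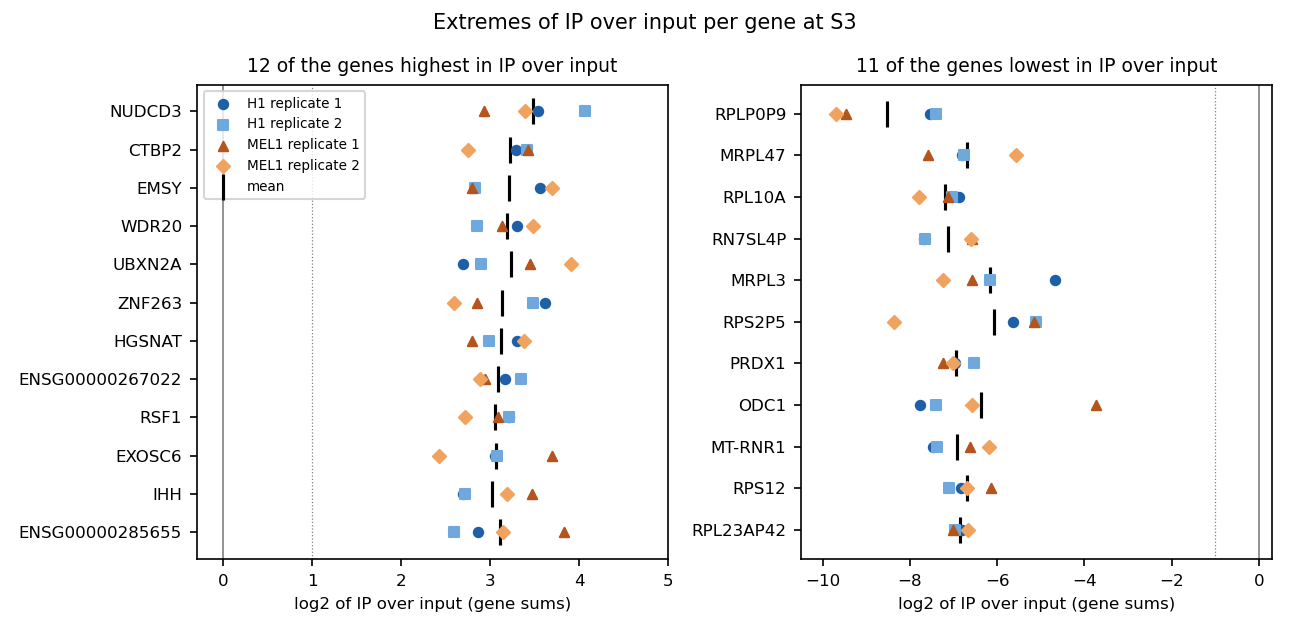
Log2 IP over input of summed gene reads (horizontal axes) for 12 of the highest and 11 of the lowest genes with at least 100 input reads; points are the 4 S3 preparations, bars their means, dotted lines a 2-fold change. All 4 points lie above 0 for every gene on the left and below 0 for every gene on the right, and IHH and RPL10A have fitted values of 3.03 and -7.21.

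Single peaks reached further. The 8 highest with at least 50 input reads lay in ZNF639 (4.30), SHROOM2 (4.28), which shapes epithelial cells through actin, NUDCD3 (4.17), POLR3B (4.16), a subunit of RNA polymerase III, EMSY (4.13), PCED1B (4.09), ZNF577 (4.06) and INKA2 (4.06). In PCED1B the H1 inputs held 3 and 0 reads, and the INKA2 peak has the same S3 counts as a peak of an overlapping gene, so it could belong to either. The lowest peak was at the listed start of TMSB10, which encodes an actin-binding peptide, with 1 IP read on 365 input reads, 1322 times lower in IP (95% exact interval for counting error 235.9 to 52380). The KPNB1 transcript, which encodes the nuclear import receptor importin beta, held a pair of such peaks. One had 3 IP reads on 551 input reads (665.5 times lower, interval 226.5 to 3237), and one had 0 on 145, at least 175.1-fold lower against a floor of 3 reads over the group. CSE1L, which encodes the export receptor of importin alpha, had 0 IP reads on 130 (at least 157-fold lower). The stress factor gene ATF4 had 0 on 125 (at least 151-fold), the chaperonin gene CCT7 0 on 119 (at least 143.7-fold) and RSAD1 0 on 116 (at least 140.1-fold).

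Some transcripts held peaks of both kinds. Of 5639 genes with 2 or more peaks, 1017 (18%) held both an enriched and a depleted peak, 724 (12.8%) had all peaks enriched and 777 (13.8%) all depleted. The examples that follow were picked after their values were seen. In GATA4, the peaks at offsets 2801 and 4151 were enriched (2.86 and 1.92) and the one at 3951 was depleted (-1.78). FOXA2 had an enriched peak at 604 (1.86) between depleted ones at 304 (-1.81) and 2154 (-1.36). HNF4A went from 2.50 at 2401 to -2.07 at 3401, whereas 4 of 5 FOXA1 peaks were enriched. NOTCH2 had 1 of 10 peaks enriched and 6 depleted, and CDH1, the epithelial cadherin, 1 of 11 enriched and 8 depleted. The direction in which offsets run along a transcript is not given in the sources used here. Among 3896 genes with at least 3 peaks, the leading peak was the first listed in 22.5%, the last in 23.7% and between them in 53.8%. The median log2 difference of the last from the first peak was 0.05, 0.06, 0.05 and 0.04 over 3279 genes, so neither end stood higher in any preparation by more than that.

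**Figure D4:**
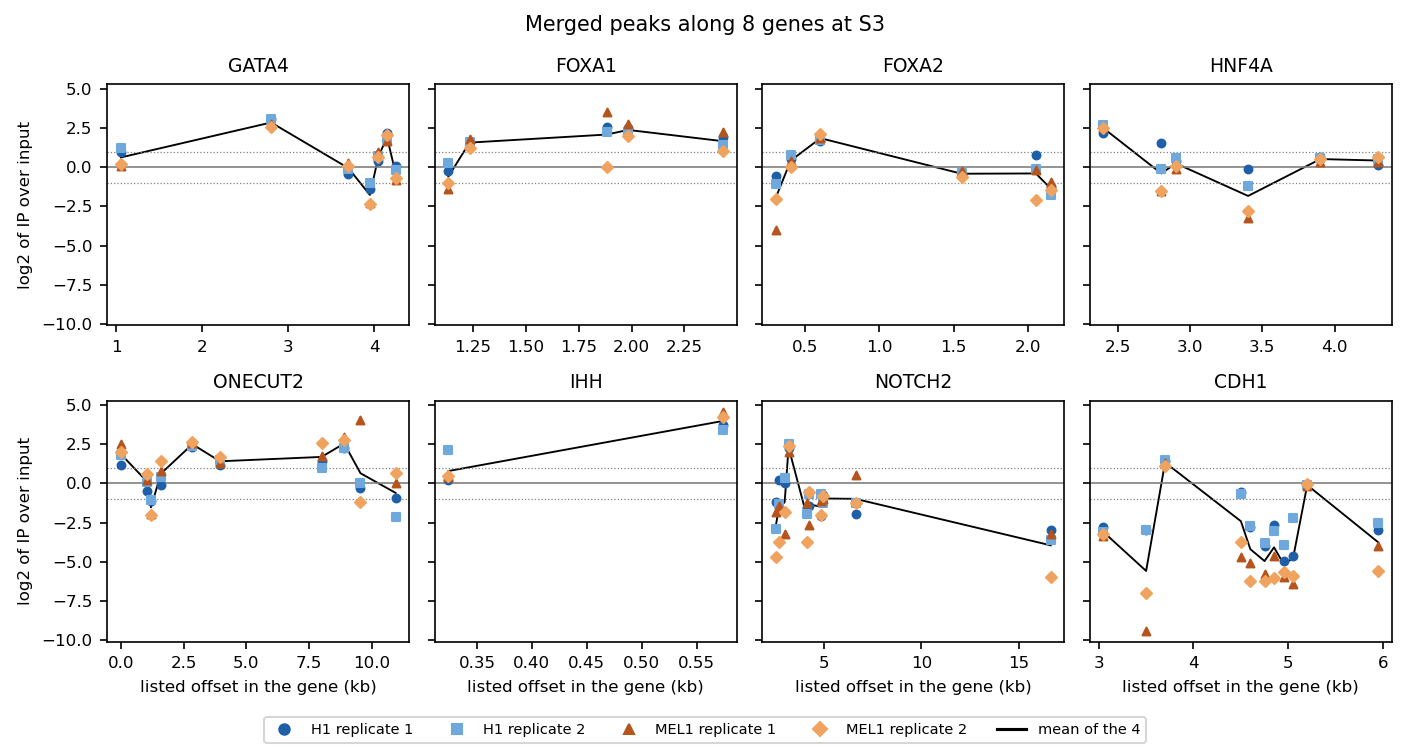
Log2 IP over input (vertical axes) of every merged peak in 8 genes against its listed offset in kb; points are the 4 S3 preparations, lines join their means and dotted lines mark a 2-fold change. The 8 genes were picked after their values were seen: GATA4, FOXA2 and HNF4A hold 1 or 2 enriched peaks beside depleted ones, and in CDH1 1 of 11 peaks is enriched.

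The same test at the other stages called 25.9% of peaks enriched and 27.6% depleted at S0, 13.1% and 23.2% at S4, and 30.4% and 36.0% at S6. Of the 8056 peaks enriched at S3, 5858 were also enriched at S0 (72.7% of those at S3 and 87.4% of those at S0). At S6 it was 6821 (84.7% and 86%), and at S4 3206 (39.8% and 93.7%), where the 2 MEL1 IP libraries held only 2483580 and 2378881 reads; without them the S4 share of S3 was 54.7%. A set of 2716 peaks was enriched at all 4 stages and 684 were called enriched at S3 alone. Foregut factor peaks were called enriched in 13 of 50 tested at S0, 20 of 76 at S4 and 32 of 76 at S6, against the 42 of 76 at S3.

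To compare stages directly, the difference in IP over input was tested peak by peak over all 32 libraries. The 3 comparisons share the S3 libraries. Against undifferentiated cells, 14 peaks were higher at S3 (0.0536%) and 7 lower (0.0268%). DESeq2 called 58 higher and 105 lower, so 66.7% of calls were higher by edgeR and 35.6% by DESeq2, and leaving out any one S3 preparation gave 4 to 8 higher and 0 to 4 lower. Foregut factors held 8 of the 14, among them single peaks of HNF4A, FOXA1, FOXA2, TBX3, GATA4, GATA6 and CDX2, and 0 of their 76 peaks were lower. The FOXA1 peak was that at offset 1983, on 12 input reads at S0. Its leading peak at 1233 was not called (2.34). IHH at offset 574 had -1.95, -1.46, -1.80 and -1.28 at S0 and 3.76, 3.52, 4.64 and 4.42 at S3. The stages did not overlap, and the rise was 5.80 ± 0.37 on the log2 scale (SE; edgeR adjusted p = 7.69e-08). Input reads rose with it, from 90 over the 4 S0 libraries to 4129 at S3.

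FOXA2 at offset 604 had -3.15, -1.05, -1.06 and -0.12 at S0 and 1.71, 1.84, 1.95 and 2.33 at S3, a rise of 3.29 ± 0.47 (SE; edgeR adjusted p = 0.0116) on 48 and 6555 input reads. CDX2 had 1.44, -0.83, -0.18 and -0.26 at S0 and 2.84, 2.61, 2.70 and 2.90 at S3, a rise of 2.88 ± 0.41 (SE; edgeR adjusted p = 0.0116) on 52 and 3686. Neither gene's stages overlapped, and the CDX2 peak lost its call without the preparation block. The other 6 factor peaks had 8 to 61 input reads at S0, and how far the low input at S0 moved these values was not tested. ACADVL, an enzyme of fatty acid oxidation, rose by 2.73. AFP at offset 701 (-4.89, on 21 input reads at S0 that all came from MEL1, since the H1 libraries held 0 reads there), IGF2 at 4630 (-2.53), whose region also carries the read-through gene INS-IGF2, the endoplasmic reticulum chaperone HSP90B1 at 1101 (-2.50) and JPT2 at 3251 (-2.45) were the named peaks lower at S3. The ACADVL rise and the named falls each lost the call under some of the alternatives. The count of foregut factor peaks was 13 with DESeq2, 4 without the preparation block, 3 with IP libraries thinned to one depth, and 3 to 5 when any one S3 preparation was left out.

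**Figure D5:**
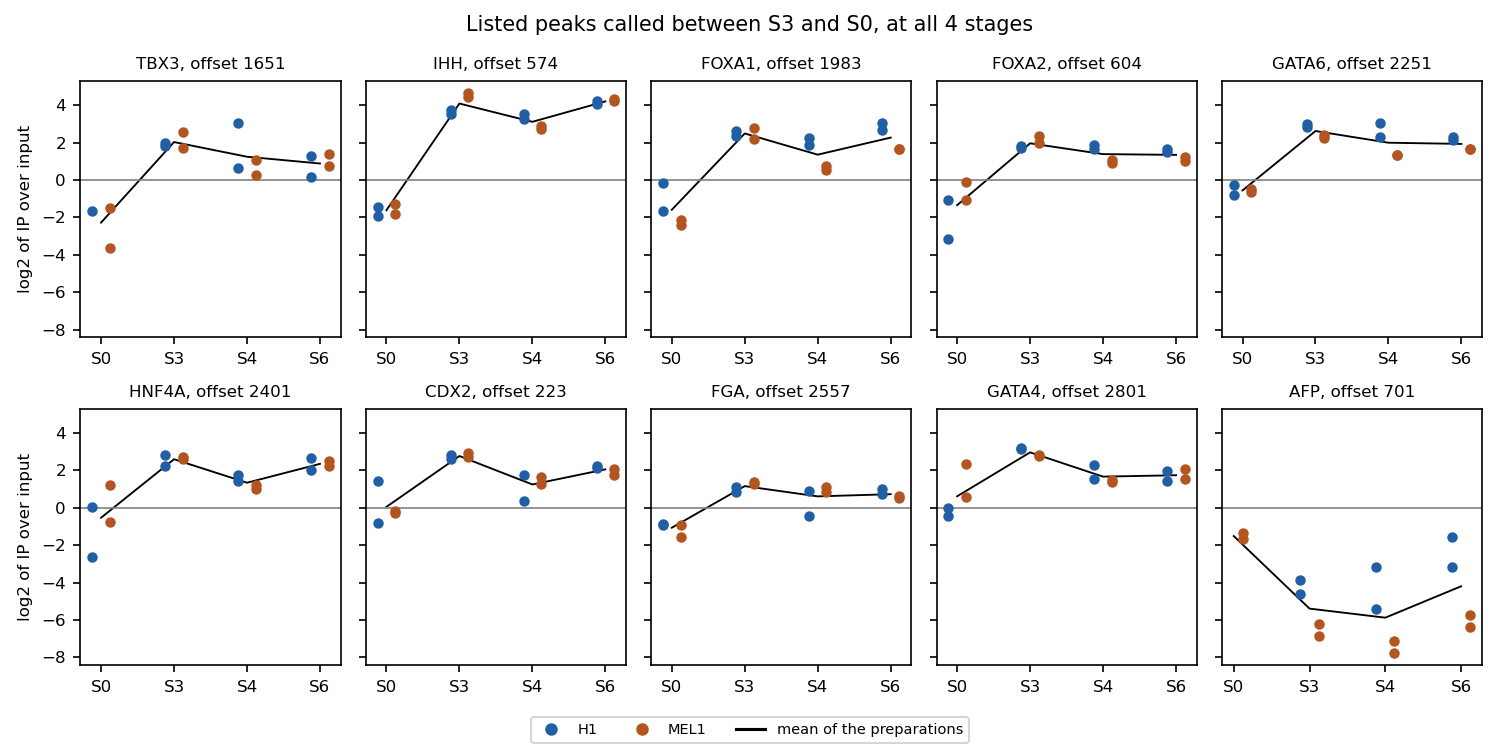
Log2 IP over input (vertical axes) at S0, S3, S4 and S6 for 10 listed peaks called between S3 and S0, each titled with its gene and offset; points are preparations of H1 and MEL1 with reads and lines join stage means. The peaks were selected by that call: the 4 S3 points lie above the 4 S0 points for IHH, FOXA2 and CDX2, and AFP at 701 has S0 points from MEL1 alone.

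Against pancreatic progenitors, 1789 peaks were higher at S3 (6.85%) and 115 lower (0.441%), with a median difference over all peaks of 0.49. These values depended on the fit: the 16 libraries of both stages alone gave 413 and 23, leaving out any one S3 preparation 721 to 1135 and 31 to 48, and DESeq2 1211 and 783, and the median was 0.03 with DESeq2 and 0.15 with IP and input normalised apart. Of the foregut factor peaks 14 of 76 were higher and 0 lower, with a median difference of 1.06. They belonged to CDX2, ELF3, FOXA1, GATA4, HNF4A, KLF5, MEIS2, ONECUT1, ONECUT2 and SOX9. The share of calls that were higher, 94%, was 78.5% with IP and input normalised apart, 60.7% with DESeq2 and 72.4% without the MEL1 libraries of S4, and the foregut factor count ran from 2 (normalised apart) to 22 (without MEL1 at S4). Leaving out any one S3 preparation gave 5 or 6. The rises named by the rule rested on peaks with 0 IP reads at S4, so they are lower bounds against a floor of 3 reads over the S4 group: at least 43.89-fold higher for GPAM, 38.83-fold for MRPL34, 25.74-fold for MAP1B and 34.6-fold for KIF5C. Their input reads were 71, 70, 25 and 130 at S3 and 49, 69, 68 and 107 at S4. The named falls were at 2 peaks of RBFOX2, a splicing regulator (-9.03 and -7.71 on the log2 scale), with SET (-4.90) and TMSB10 (-4.75), the last 2 on 4 and 1 IP reads at S3. The MAP1B, SET and TMSB10 peaks each lost the call under some of the alternatives. Against beta-like cells, 0 peaks were higher and 0 lower (0% each) by edgeR, with 651 at an unadjusted p under 0.05, and DESeq2 called 5 and 10.

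Between the lines at S3, IP over input was higher in MEL1 at 112 peaks (0.429%) and lower at 237 (0.908%). None of the 76 foregut factor peaks was called either way (0 and 0), and their median difference was 0.08; DESeq2 called 0 and 2 of them. The signalling list had 2 higher (CRABP2 and ID3) and 3 lower (ID2, GLI2 and SMO, none at a leading peak), gut epithelium 0 and 3 (CDH1, CDH2 and LAMC1) and the hepatic list 0 and 2 (VTN and FGA). These counts rested on single preparations. Without H1 replicate 1 the counts over all peaks were 1 higher and 7 lower, without H1 replicate 2 they were 1 and 0, without MEL1 replicate 1 they were 2153 and 3543, and without MEL1 replicate 2 they were 2009 and 2887, the lone preparation of a line being taken to vary like the pair of the other line. In the last 2 settings 6 and 4 foregut factor peaks were higher in MEL1, and 9 and 6 lower.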

How the data were processed

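MeRIP-seq, in which fragmented poly(A) RNA is pulled down with an antibody to m6A and sequenced beside its input, was made by the study from total RNA with a stranded library kit. The deposited file holds raw read counts per merged peak. Per the study's methods, the authors binned each Ensembl release 94 gene at 50 bp, then called peaks, merged them and counted their reads with MeRIPtools. The aligner and genome build are not given in the sources used here, and no sequence or coordinate is reported. Because each peak is named by a gene and an offset, one merged set serves all stages, and a gene without a merged peak has no value here. Intervals cover counting error only, since reads carried no molecular identifiers.

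Peaks with at least 10 reads over the S3 libraries were tested with edgeR 4.0.16 in R 4.3.3 (TMM normalisation, glmQLFit and glmQLFTest) with the RNA preparation as a block. The pairing comes from the labels, and the deviations of IP and input of one preparation from their means correlated at 0.70 and 0.70 in H1 and 0.55 and 0.51 in MEL1 over 19096 peaks, where the best correlation with a library of another preparation was 0.68 and 0.68 in H1 and, above that of the own partner, 0.59 and 0.61 in MEL1. The block therefore rests on the labels, not on these values. Calls needed an adjusted p (Benjamini-Hochberg) under 0.1 and 2-fold. Per-preparation log2 values used a prior count of 1. Stages were compared in one fit of all 32 libraries (26104 peaks) and lines by an interaction term. DESeq2 1.42.0, other scalings and filters, the fit without the block, single lines and left-out preparations were alternatives; the fits of S4 without MEL1, of the gene table with the normalisation of the peak table and of the lines and other stages with preparations left out were chosen after seeing the data. The steps were tested on simulated data. Figures were drawn with matplotlib 3.10.9.

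The gene lists, families and tests were chosen with earlier results of these data known. Genes named were up to 15 members, by IP reads, of the 4 lists of foregut transcription factors, foregut signalling, gut epithelium and hepatic genes, the 12 highest and 12 lowest called genes with at least 100 input reads, the 8 highest and 8 lowest called peaks with at least 50 (both with one direction in all 4 preparations), and, per stage comparison, the 4 largest called rises and falls with at least 20 input reads at each stage and no overlap. Other named genes are marked where they are named, or are listed because a stage or line comparison called one of their peaks. Some genes that the rule names are not reported here, and their counts remain in the totals. Replicates of one line and assay differed by more than counting noise in every S3 pair.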

Additional observations from a re-analysis of the deposited data

Results flagged for a closer look

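Of 92 named values with 4 preparations, 2 had one preparation far from the other three by Dixon's criterion (the gap to the nearest value over the range, at its 95% critical value), and chance alone marks about 1 in 20. At the leading peak of CLDN3 (offset 75), a claudin of tight junctions, log2 IP over input was 2.0, 1.69 and 1.73 in H1 replicates 1 and 2 and MEL1 replicate 1 and 0.01 in MEL1 replicate 2, a gap of 0.847 of the range. The gene sum of the ribosomal pseudogene RPS2P5 was -5.65, -5.11 and -5.16, against -8.37 in MEL1 replicate 2, a gap of 0.836, on 9 IP reads in all.

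Of 80 named peaks checked for a difference between the lines, 3 passed edgeR's interaction test, and all 3 belong to a comparison whose counts changed when single preparations were left out. ZNF639 at offset 1751 was 2.63 higher in MEL1 on the log2 scale (H1 mean 3.45, MEL1 mean 5.94, edgeR adjusted p = 0.082), with 4 and 4 input reads in MEL1. CRABP2 at 451 was 1.19 higher in MEL1 (-3.86 in H1 and -2.64 in MEL1, edgeR adjusted p = 0.0904), where its input level was far lower. HSP90B1 at 1101, the endoplasmic reticulum chaperone, differed by -1.93 (-3.68 in H1 and -5.61 in MEL1, edgeR adjusted p = 0.0383).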

How the results depend on the processing

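Each S3 peak count stayed within 1.5 times under the alternatives run, with 7049 to 8111 enriched and 8375 to 8896 depleted when one preparation was left out and 8269 and 9398 without the replicate block, and no peak was called in the opposite direction. Library totals gave 9032 and 8445, so enriched peaks then outnumbered depleted ones (51.7% of calls, against 46.8%), and MEL1 alone gave 6265 and 7430. Counts of enriched and depleted genes moved to 4230 and 1425 with library totals and to 3832 enriched with the normalisation of the peak table, since the centre of the scale shifts. The line comparison gave 291 higher and 618 lower in MEL1 with DESeq2, 380 lower with library totals, and 1 to 2153 higher and 0 to 3543 lower with one preparation left out. Against S0, higher and lower counts were 58 and 105 with DESeq2, 8 and 3 with the 16 libraries of both stages, 5 higher with thinned IP libraries, 4 to 8 and 0 to 4 with one S3 preparation left out, and 8 higher without the replicate block, where the CDX2, IGF2 and HSP90B1 peaks also lost their calls. Against S4, they were 783 lower with DESeq2, 413 and 23 with the 16 libraries of both stages, 517 higher with IP and input normalised apart, 603 higher with thinned IP libraries, 721 to 1135 and 31 to 48 with one S3 preparation left out, 4507 and 1719 without MEL1 at S4, and 196 lower without the replicate block. Against S6, DESeq2 gave 5 and 10 and the 16 libraries of both stages 4 and 26. At S4 itself 6108 peaks were enriched without MEL1. The cause was not tested for the line and stage comparisons. Of the values of named genes and peaks under alternatives, 1285 kept direction and call, 35 lost the call and 0 reversed; those lost at S3 itself were HES1, CLDN6, FGA and CLDN3, and in the stage comparisons the IGF2, ACADVL, HSP90B1, AFP, JPT2, CDX2, SET, TMSB10 and MAP1B peaks. The 1545 enriched peaks with under 20 input reads are the least certain. Scaling by library totals raised all S3 log2 values by 0.23, and setting mitochondrial reads equal would raise them by 5.19, so enrichment has no absolute zero here.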

Other observations

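The m6A machinery itself was measured at 13 of 18 listed genes, with METTL3, METTL14, FTO, YTHDC2 and IGF2BP3 lacking a merged peak. Of 63 peaks, 17 were enriched and 32 depleted (median log2 IP over input -1.21), against 30.9% and 35.1% of all peaks. The writer subunits and partners RBM15 (3.49 at its leading peak, 5 of 5 peaks enriched), ZC3H13 (2.17, with 3 enriched and 3 depleted of 12 peaks), WTAP (1.95, 2 of 2 enriched), VIRMA (1.91, its one peak) and RBM15B (1.15, its other 3 peaks depleted) were enriched at their leading peaks, as were the readers YTHDF2 (1.89, its one peak) and YTHDF3 (1.24, 3 enriched and 1 depleted of 4). The leading peaks of the readers YTHDF1 (0.48) and YTHDC1 (-0.54) and of the writer partner CBLL1 (0.91) were not called. The eraser ALKBH5 (-1.74, 5 of 5 peaks) and the m6A-binding protein IGF2BP1 (-3.13, 9 of 9 peaks) were depleted, and 9 of 10 peaks of IGF2BP2 were depleted. These genes were named after their values were seen.

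Other cell type lists were small, beside the same background of 30.9% of peaks enriched and 35.1% depleted. Endoderm induction genes had 6 of 15 peaks enriched (40%) and 3 depleted (20%), with a median of 1.0. Among their 9 peaks with at least 50 input reads, 2 were enriched (22.2%, against 27.1% of all such peaks) and 3 depleted (33.3%, against 44.6%). Mesoderm and stroma had 6 and 4 of 21 (28.6 and 19%, median 1.03) and neuroectoderm 8 and 8 of 29 (27.6% each, median 0.30), enriched shares near the background. Undifferentiated cells had 8 and 23 of 48 (16.7 and 47.9%, median -1.31) and endocrine genes 0 and 9 of 11 (81.8% depleted, median -3.30, partly the read-through gene INS-IGF2). Within the undifferentiated list, with genes picked after their values were seen, LIN28A, an RNA-binding protein of stem cells, had all 8 peaks depleted (leading peak -4.95), while the leading peaks of the transcription factors SALL4 (3.04) and SOX2 (1.73) were enriched. In S3 inputs the definitive endoderm markers summed to 52.37 and 70.02 CPM in H1 and 43.73 and 30.24 in MEL1 (4 of 5 with a peak), mesoderm and stroma markers to 80.6, 83.43, 124.9 and 121.2 (3 of 6), and endocrine markers to 25.57, 31.29, 4.107 and 1.875 (2 of 4), with STMN2 at 0 reads in both MEL1 inputs.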
